A study of Mus musculus with 14 samples.

Results

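Small leucine-rich proteoglycans are secreted matrix proteins with a core of leucine-rich repeats, and 10 genes of the family were followed here in the stroma of mouse bone marrow: Dcn, Bgn, Fmod, Lum, Omd, Ogn, Kera, Chad, Prelp and Aspn. They were chosen by symbol, and all 10 are listed among the 50600 genes of the bulk table and the 32285 genes of the stromal single-cell tables. Marrow was compared between mice with and without a mammary tumour, to ask how marrow cells change in the presence of a distant tumour. Mesenchymal stem cells (MSC) were profiled in bulk in 4 libraries from tumour-free mice and 4 from mice bearing tumours of Py230, a mammary tumour line derived from a PyMT mouse. Single stromal cells were captured in 1 library from wild-type (WT) mice and 1 from PyMT mice, a transgenic model of mammary cancer, and hematopoietic stem and progenitor cells (HSPC) in 2 WT and 2 PyMT libraries. The tumour model thus differs between the bulk and the single-cell data. The labels give neither strain, age nor tumour stage, nor whether the bulk libraries came from separate animals or from pools, so p-values here set a difference against library-to-library spread that may be partly technical.

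The proteins of this family bind collagen and set how fibrils assemble and how thick they grow. Decorin (Dcn) and biglycan (Bgn) carry chondroitin or dermatan sulfate chains and bind TGF-beta, and asporin (Aspn) resembles them but carries no such chain. Fibromodulin (Fmod), lumican (Lum), keratocan (Kera), prolargin (Prelp) and osteomodulin (Omd, also called osteoadherin) form a further class, many of whose members carry keratan sulfate, and Omd is known from mineralised matrix. Osteoglycin or mimecan (Ogn) is a small member found in bone and other connective tissues, and chondroadherin (Chad) is a cartilage protein that cells bind through an integrin. In marrow, mesenchymal cells marked by the leptin receptor (LepR+) line the sinusoids and make Cxcl12 and Kitl, and fibroblasts, bone-lining cells and tendon or periosteal cells can come along when bone is dissected.

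Most of the genes sit in 3 groups of neighbours on the mouse genome (GRCm38, GENCODE M21), all protein coding. Aspn (13:49544443-49567565), Omd (13:49582462-49592822) and Ogn (13:49608046-49624501) follow each other on the plus strand, inside a gene on the opposite strand, Cenpp. Dcn (10:97479609-97518143), Lum (10:97565128-97572703) and Kera (10:97606879-97613692) follow each other on the plus strand of chromosome 10. Prelp (1:133910304-133921414, minus strand) lies beside Fmod (1:134037254-134048277, plus strand), whereas Bgn (X:73483602-73495933) and Chad (11:94565047-94569127) have no other member beside them. The 250 bases before the RefSeq start of Aspn, Omd and Ogn (GRCm38.p6, plus strand, at 13:49544193-49544442, 13:49582212-49582461 and 13:49607765-49608014) are printed because Omd and Ogn were the genes that fell in bulk MSC, while their neighbour Aspn did not. Capitals mark matches on either strand to any of 5 motifs: the TATAAA box, the AP-1 motif TGANTCA, the Runx motif TGTGGT, the CCAAT box and the E-box CAGCTG.
Aspn: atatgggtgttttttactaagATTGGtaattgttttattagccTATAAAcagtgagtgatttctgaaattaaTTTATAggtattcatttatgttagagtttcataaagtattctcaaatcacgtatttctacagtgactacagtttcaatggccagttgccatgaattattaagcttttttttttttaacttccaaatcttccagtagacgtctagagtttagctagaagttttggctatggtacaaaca
Omd: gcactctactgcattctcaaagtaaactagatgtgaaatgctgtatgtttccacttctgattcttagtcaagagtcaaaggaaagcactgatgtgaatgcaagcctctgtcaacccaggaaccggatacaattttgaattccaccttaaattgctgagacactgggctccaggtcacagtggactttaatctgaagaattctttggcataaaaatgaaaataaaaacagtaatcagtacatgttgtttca
Ogn: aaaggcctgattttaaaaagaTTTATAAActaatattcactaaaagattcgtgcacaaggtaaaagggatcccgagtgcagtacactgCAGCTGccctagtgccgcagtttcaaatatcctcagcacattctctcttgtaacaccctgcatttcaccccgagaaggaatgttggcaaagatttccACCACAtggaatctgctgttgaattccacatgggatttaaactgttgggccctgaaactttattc

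The window before Ogn held TATAAA on both strands at overlapping positions, CAGCTG and TGTGGT (read as ACCACA on the printed strand), and that before Aspn held 2 separate TATAAA matches and a CCAAT match (read as ATTGG). The window before Omd held no match to any of these motifs. The share of all 32851 RefSeq promoter windows of this length with a match was 12.4% for the TATAAA box, 6.75% for the AP-1 motif, 14.0% for the Runx motif, 33.9% for the CCAAT box and 13.0% for the E-box. The windows were poor in G and C, at 30.0% before Aspn, 38.4% before Omd and 42.0% before Ogn, against a median of 52.4% over all windows. These matches describe letters and are not sites.

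The bulk libraries held 4301375 to 9811251 counted reads, and no pair held identical values. Tumour-free replicate 1 and Py230 replicate 3 had reads in 25088 and 21009 genes, against 30966 to 36678 in the other 6. The kept stromal cells, 2190 WT and 3191 PyMT, held 10222176 and 15542745 unique molecular identifiers (UMIs), and 2 cell barcodes occurred in both libraries. The authors' 6 clusters were named from marker lists: cluster 0 was LepR+ mesenchymal-like (all 10 markers at least 2-fold over the other cells; 977 WT and 2242 PyMT cells), cluster 1 tendon-like (all 14 markers; 441 and 367 cells) and cluster 2 fibroblast-like (11 of 12; 559 and 346 cells). Clusters 3 and 4 were sinusoidal and capillary endothelial-like, and cluster 5 was osteolineage-like with cartilage collagens such as Col2a1 among its leading genes. Cluster 1 also had 6 of 12 chondrocyte markers at least 2-fold over the other cells (Acan, Col10a1, Sox9, Hapln1, Cytl1 and Snorc), and cluster 5 had 2. The lists were chosen with earlier results of these data known and hold leading genes of these clusters. The counts of markers thus describe the names and do not test them.

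In bulk MSC, decorin rose and osteomodulin and osteoglycin fell with a Py230 tumour, and the other 6 tested members did not pass the test. Of the 10 genes, 9 had enough reads for the edgeR quasi-likelihood test, in which 1 rose and 2 fell at a Benjamini-Hochberg adjusted p under 0.05 over all 16317 genes tested. Over all those genes 1.99% rose and 2.74% fell. The median log2 change was 0.74 over the 9 members and 0.04 over all genes tested. The member median was the value of Chad, which did not pass the test. Bgn, Omd, Ogn and Prelp lay below 0, and Dcn, Lum, Fmod, Chad and Aspn above it. Levels are given as TMM-normalised CPM, a gene's reads relative to all counted reads of the library, in the order of replicates 1 to 4. In bulk RNA, fewer cells of a type and less RNA per cell cannot be told apart.

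Osteoglycin fell most clearly. Its level was 294.6, 315.7, 215.2 and 181.9 CPM in the tumour-free libraries and 51.7, 81.5, 111.1 and 86.8 CPM in the Py230 libraries. Every Py230 library lay below every tumour-free library. The mean went from 252 ± 63.6 to 82.8 ± 24.4 CPM (SD, n = 4 each), a 3.02-fold fall (log2 change -1.60, SE 0.24, edgeR adjusted p = 0.00482). Osteomodulin, the next gene upstream, stood at 21.7, 15.3, 9.72 and 10.8 CPM without a tumour. It stood at 3.02, 4.83, 6.43 and 4.53 CPM with one, again with no overlap. Its 2.97-fold fall had a log2 change of -1.57 (SE 0.30, edgeR adjusted p = 0.00728). Asporin, the third gene of this neighbourhood, was at 2.207, 1.996, 3.787 and 2.034 CPM against 0.862, 2.85, 12.2 and 11.8 CPM. Py230 replicate 1 lay lowest and Py230 replicates 3 and 4 highest of all 8 libraries, and the log2 change of 1.46 (SE 0.64) did not pass (edgeR adjusted p = 0.290; 0.0462 without Py230 replicate 1).

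Decorin was at 176.7, 138.4, 159.0 and 150.7 CPM in tumour-free libraries and at 380.5, 295.3, 388.6 and 280.3 CPM in Py230 libraries, with no overlap. The mean rose from 156 ± 16.1 to 336 ± 56.3 CPM (SD, n = 4 each), 2.15-fold (log2 change 1.11, SE 0.13, edgeR adjusted p = 2.65e-04). Ogn reads per Dcn read fell accordingly, from 1.21 to 2.28 across the tumour-free libraries to 0.136 to 0.310 across the Py230 libraries. This ratio was formed after both changes were seen and is given without a test. Lumican, the neighbour of decorin, was at 20.9, 23.1, 31.3 and 26.0 CPM against 25.2, 38.4, 60.3 and 49.4 CPM. Its groups overlapped only through Py230 replicate 1, and the log2 change of 0.78 (SE 0.23) missed the threshold (edgeR adjusted p = 0.0824). Without that library the adjusted p was 0.00616 and Lum counted as a rise. Keratocan, the last of the 3 neighbours, was not tested, with 0 to 40 reads per library.

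Biglycan, the most abundant member, was at 1765, 1587, 1426 and 1227 CPM against 969, 1339, 1477 and 1159 CPM, and the groups overlapped (log2 change -0.28, SE 0.14, edgeR adjusted p = 0.372). Prolargin was at 522.1, 542.0, 619.4 and 547.3 CPM against 506.8, 430.9, 465.3 and 415.6 CPM. These ranges did not overlap, but the change was small (log2 -0.29, SE 0.10) and did not pass (edgeR adjusted p = 0.136). Over all genes tested, 11.0% had ranges that did not overlap, and among the 9 members Dcn, Omd, Ogn and Prelp did. Fibromodulin was the least even member, at 14.8, 3.49, 24.9 and 15.1 CPM against 1.94, 17.1, 93.3 and 44.9 CPM (log2 change 1.44, SE 0.997, edgeR adjusted p = 0.585). Py230 replicates 1 and 3 held its lowest and highest values of all 8 libraries. Chondroadherin was at 1.74 to 4.41 CPM without a tumour and 2.80 to 8.43 CPM with one (edgeR adjusted p = 0.396).

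**Figure D1:**
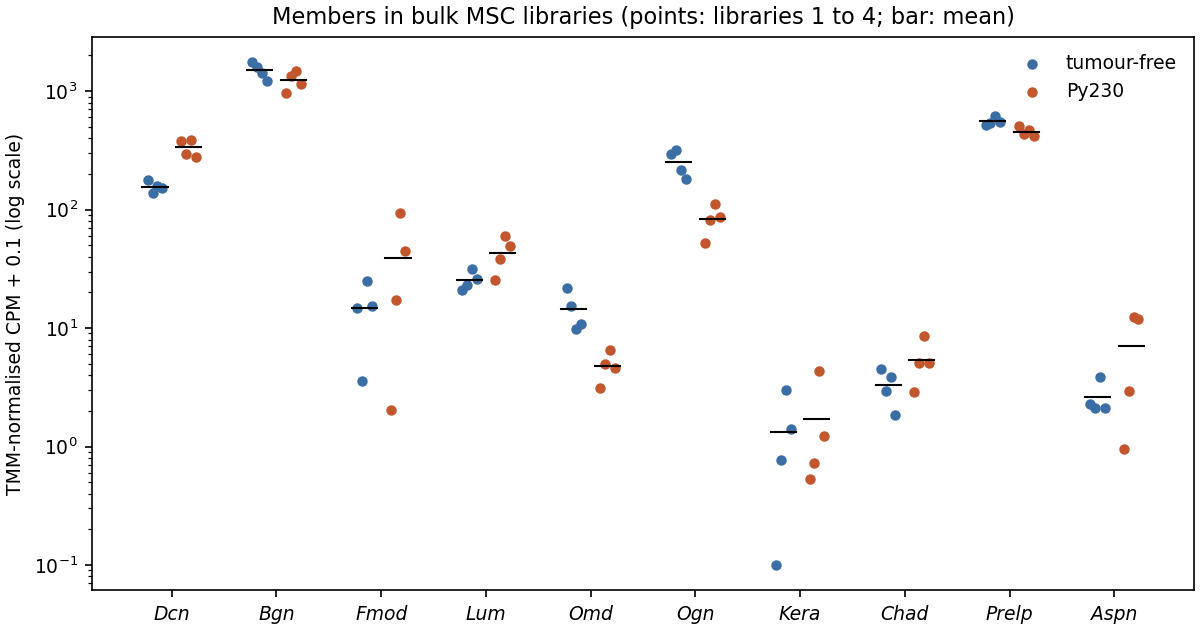
TMM-normalised CPM plus 0.1 on a log axis for the 10 genes in the 4 tumour-free (blue) and 4 Py230 (orange) bulk MSC libraries; points are libraries 1 to 4 from left to right and bars are means. The groups do not overlap for Dcn, Omd, Ogn and Prelp, while Fmod and Aspn spread widely among the Py230 libraries.

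Divided by exon length, the order of the members changed in the middle. The mean level without a tumour was highest for Bgn (246 RPKM, reads per kilobase of exon per CPM unit), followed by Prelp (154), Ogn (98.1), Dcn (26.8), Lum (10.3), Omd (6.39), Fmod (4.41), Chad (1.90), Aspn (1.06) and Kera (0.535). With a Py230 tumour Dcn, at 57.6 ± 9.64 RPKM, stood above Ogn, at 32.3 ± 9.51 RPKM (SD, n = 4 each). The neighbours Omd and Fmod (6.39 ± 2.42 and 4.41 ± 2.64 RPKM without a tumour) lay within their spread, as did Chad and Aspn with a tumour (3.15 ± 1.38 and 2.94 ± 2.51 RPKM).

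Reads from overlapping genes could be shared, since the strand setting of the counting is not given in the sources used here. Cenpp, which spans Aspn, Omd and Ogn, was at 0.744 ± 0.318 and 1.13 ± 0.323 CPM (SD, n = 4 each), too low for the test, and shares no exon base with Omd or Ogn. Prelp shares 350 exon bases with the antisense gene Gm15851, which was at 3.35 and 2.29 CPM on average.

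Among the markers measured in the same libraries, the summed LepR+ list was lower with a tumour, at 17737 to 20533 against 31268 to 33694 CPM (exact permutation test, p = 0.0286, the smallest these 8 libraries allow; 0.0714 adjusted over 10 lists). The fibroblast list was higher, at 1101 to 1269 against 793 to 983 CPM, and so were the tendon list, at 1356 to 1872 against 804 to 1047 CPM, and the Schwann list, at 131 to 188 against 121 to 130 CPM, with the same exact p-values. Cxcl12 made up 57.8% of the LepR+ sum and Ncam1 78.5% of the Schwann sum. These sums were not formed without their top gene. Of the 6 tested Schwann genes 0 passed the edgeR test. Pdgfra made up 75.7% of the fibroblast sum and Col12a1 52.7% of the tendon sum, and without them the sums were 251.3 to 385.9 against 157 to 232 CPM and 526 to 984 against 392 to 542 CPM (exact permutation p = 0.0286 and 0.0571). Single genes of these lists ranged widely. Of the fibroblast list, Pi16 stood at 0.687 ± 0.183 CPM without and 2.46 ± 1.60 CPM with a tumour (SD, n = 4 each, here and in the next sentence), and Col14a1 at 5.27 ± 3.77 and 17.6 ± 8.75 CPM. Of the tendon list, Tnmd stood at 0.364 ± 0.245 and 0.868 ± 0.882 CPM, Prg4 at 18.4 ± 22.8 and 119 ± 85.3 CPM and Comp at 38.3 ± 13.1 and 63.8 ± 17.0 CPM. Pi16 and Tnmd had too few reads for the edgeR test, and the other 3 did not pass it. These 5 genes were chosen after their values were seen. Of the 9 tested fibroblast genes 1 passed, Gsn, which rose, and of the 13 tested tendon genes 0 passed. Of the 10 tested LepR+ genes 5 fell and 0 rose, with Lpl, Gas6, Cxcl12 and Adipoq at the smallest p. Py230 replicate 1 held the lowest Fmod and Aspn of all libraries and the second highest Dcn. The osteolineage sum overlapped between groups (1544 to 12199 against 3654 to 7242 CPM). Without Col1a1, which made up 56.9% of it, the sum was 1137 to 2727 against 2428 to 3399 CPM (exact permutation p = 0.0857). Of its 11 tested genes only Phex passed, falling 3.74-fold. The part of these cell types in the changes of Dcn, Lum, Omd and Ogn was not tested.

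Outside the 10 genes, 6 of 8 further family members were tested in bulk MSC and 1 rose. Tsukushi (Tsku), a secreted family member that binds BMP and Wnt pathway proteins, rose 1.90-fold from 11.1 ± 1.45 to 21.2 ± 3.09 CPM (SD, n = 4 each; log2 change 0.92, SE 0.17, edgeR adjusted p = 0.00552). Opticin (Optc), which lies beside Prelp, was at 3.52 ± 1.21 and 7.53 ± 1.27 CPM and missed the threshold (edgeR adjusted p = 0.0557), and Ecm2, which lies beside Aspn, was at 41.4 ± 4.63 and 31.5 ± 6.01 CPM (edgeR adjusted p = 0.171). Podnl1 was at 154 ± 8.04 and 143 ± 22.1 CPM and Chadl at 2.58 ± 1.44 and 2.23 ± 1.52 CPM, neither past the test (edgeR adjusted p = 0.773 and 0.941). Podn reached 167 CPM in Py230 replicate 1 and 29.7 to 46.0 CPM in the other 3 Py230 libraries, against 40.4 to 63.7 CPM without a tumour (edgeR adjusted p = 0.850). Epyc and Nyx had too few reads for the test.

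Genes that work with this family moved in both directions. Of 21 other matrix and cell-surface proteoglycans tested, 1 rose and 4 fell. Aggrecan (Acan), the large cartilage proteoglycan, fell 4.73-fold from 11.8 to 2.57 CPM, the syndecans Sdc1 and Sdc2 fell 1.66-fold and 1.52-fold, and serglycin (Srgn) rose 2.13-fold. Of 30 tested genes for the making of glycosaminoglycan chains 1 rose and 2 fell: Chst11, a chondroitin sulfotransferase, rose 1.31-fold, Dse, the epimerase that makes dermatan sulfate, fell 1.30-fold, and Chst3 fell 2.43-fold. Of 25 collagens and fibril partners only fibulin 2 (Fbln2) passed, rising 5.77-fold from 2.92 to 17.1 CPM.

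Of 26 tested collagen- and proteoglycan-processing enzymes 2 rose and 4 fell. The collagenase Mmp13 rose 1.59-fold and the prolyl hydroxylase subunit P4ha1 1.52-fold, whereas the aggrecanase Adamts5 fell 1.66-fold and Tll2 fell from 8.41 to 2.25 CPM. Of 18 TGF-beta ligands, receptors and latent binding proteins 3 rose and 3 fell, among them Ltbp1 (1.50-fold higher), Smad7 (1.46-fold higher), Ltbp2 (2.06-fold lower) and Lrrc32, which holds latent TGF-beta at the cell surface (2.86-fold lower). Of 11 receptors known to bind decorin or biglycan, Igf1r and Insr rose 1.61-fold and 1.45-fold. The medians of these lists lay between -0.11 and 0.32 on the log2 scale, against 0.04 over all genes tested, and the adjusted p-values of the genes named from them between 0.00227 and 0.0484 (edgeR).

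The single-cell libraries placed the members in different cells. Decorin was highest in tendon-like cells: in the WT library it reached 26268 CPM of summed UMIs in tendon-like cells, 13414 in fibroblast-like cells and 3548 in osteolineage-like cells, against 673 in LepR+ cells. Biglycan was even, at 1021 to 1525 CPM in these 4 clusters. Fibromodulin, chondroadherin and keratocan came mostly from cluster 1. In the WT library 98.9% of all Fmod UMIs, 99.0% of Chad UMIs and 97.9% of Kera UMIs came from it. In the PyMT library the shares were 97.6%, 95.2% and 96.2%. Asporin came from fibroblast-like cells (1951 CPM in WT) and tendon-like cells (1860 CPM), with 8.64 CPM in LepR+ cells. Osteoglycin was at 929, 1443 and 1124 CPM in LepR+, tendon-like and fibroblast-like cells of the WT library and at 133 CPM in osteolineage-like cells. Osteomodulin was highest in osteolineage-like (173 CPM) and tendon-like cells (169 CPM), which lay within each other's counting error, and prolargin in tendon-like cells (2893 CPM).

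UMI counts of single cells carry free RNA from other cells. The sinusoidal endothelial-like cells were looked at for such RNA. In the WT library they held 450 CPM of Dcn, 516 of Bgn, 213 of Prelp and 71.1 of Ogn. In the PyMT library they held 132, 282, 126 and 35.3 CPM. Their Fmod UMIs in the WT library, 23 in all, came from 2 of 55 cells and give no such level. The capillary endothelial-like cells held 120 and 89.1 CPM of Dcn and 25.7 and 19.8 CPM of Ogn. In WT and PyMT LepR+ cells Fmod was at 10.3 and 6.02 CPM and Chad at 8.91 and 5.35 CPM. Aspn was at 8.64 and 7.16 CPM and Kera at 2.97 and 0.955 CPM. All lay above the level of 3 counts in LepR+ cells (0.810 and 0.287 CPM). Their UMIs came from 12, 15, 17 and 1 of 977 WT cells and from 35, 25, 45 and 5 of 2242 PyMT cells. In the sinusoidal cells 3 counts equal 17.8 and 6.62 CPM, so free RNA at such levels could not be measured there. Whether these UMIs came from free RNA, mixed cells or low expression was not tested.

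**Figure D2:**
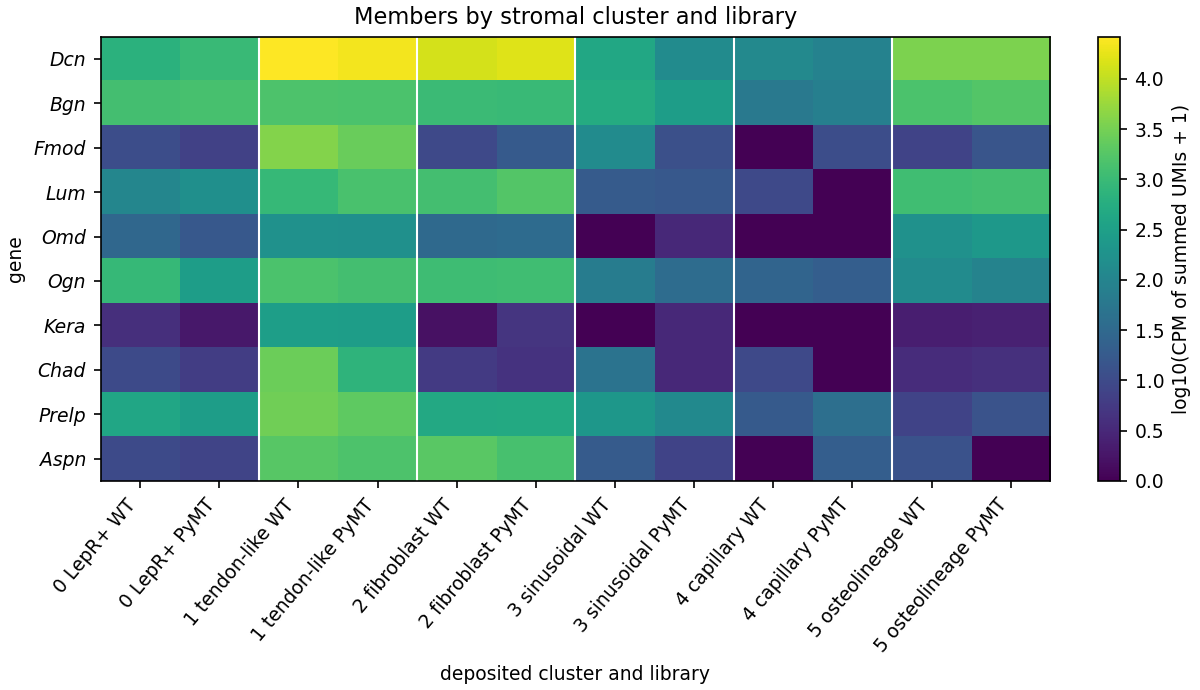
Level of the 10 genes in each of the 6 deposited clusters, WT and PyMT library side by side, as log10 of CPM of summed UMIs plus 1; there is 1 library per genotype. Fmod, Kera and Chad are brightest in cluster 1, Aspn in clusters 1 and 2, and Dcn reaches 26268 CPM in WT cluster 1. Fmod in WT cluster 3 is at 136 CPM, from 2 cells.

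With 1 library per genotype no test between PyMT and WT was possible, and the 95% intervals below cover counting error only. Osteoglycin was the member that stood apart in LepR+ cells. It was at 929 CPM (898 to 960) in the WT and 284 CPM (274 to 295) in the PyMT library, 3.27-fold lower (log2 ratio -1.71, -1.78 to -1.64). In tendon-like cells the log2 ratio of Ogn was -0.21 (1443 to 1252 CPM), and in fibroblast-like cells 0.04 (1124 to 1157 CPM). The difference between clusters has no replicate and was not tested.

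The lower level went with fewer LepR+ cells in which Ogn was seen. Thinned to 1500 UMIs per cell, 62.4% of 918 WT and 29.7% of 2162 PyMT LepR+ cells held an Ogn UMI (Clopper-Pearson 95% intervals 59.2% to 65.6% and 27.8% to 31.7%), and 59 and 80 shallower cells were left out. Unthinned shares were 77.0% and 54.7%. In sinusoidal endothelial-like cells 4.17% and 3.92% held one at the same depth; before thinning the median cell held 3591 and 4421.5 UMIs in the LepR+ and 2750 and 3549.5 in the sinusoidal cluster.

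Decorin was higher in PyMT LepR+ cells, at 990 CPM against 673 (log2 ratio 0.56, 0.49 to 0.62), and so was lumican, at 156 against 106 CPM (0.56, 0.40 to 0.72). The share of LepR+ cells with a Dcn UMI at 1500 UMIs was 43.5% in WT and 56.3% in PyMT (60.9% and 76.7% unthinned), against 18.8% and 10.8% of sinusoidal cells. Osteomodulin was at 29.4 and 15.5 CPM (log2 ratio -0.93, -1.29 to -0.56), prolargin at 411 and 284 CPM (-0.53) and biglycan at 1251 and 1376 CPM (0.14). Counting all 10 members, 2 were more than 2-fold lower in PyMT LepR+ cells, Ogn and Kera, and none was more than 2-fold higher. Over the 12617 genes with at least 20 UMIs there, 2.50% were past 2-fold lower and 4.57% past 2-fold higher. The Kera count rested on 11 WT and 10 PyMT UMIs, and the 11 came from 1 cell. The median log2 ratio was -0.63 over the members and 0.08 over all genes.

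Other genes moved with the library in the same LepR+ cells. The immediate-early gene Egr1 was at 4571 CPM in WT and 9558 CPM in PyMT, Fos at 7109 and 14178 CPM, and the summed osteolineage list at 7360 and 4752 CPM, with 4 of 11 genes past 2-fold lower and 1 past 2-fold higher. Of the pericyte list 8 of 10 genes were above 0 (median log2 ratio 0.74), of the sinusoidal list 7 of 8 (0.67), and of the LepR+ list 4 of 10 (-0.18). The tendon list had 9 of 10 genes above 0 (median 0.60), and its sum was 787 CPM in WT and 1041 CPM in PyMT. For the fibroblast list it was 8 of 12 genes (median 0.35), with sums of 770 and 623 CPM. Divided by Egr1 after the data were seen, the cells without an Egr1 UMI (130 WT and 125 PyMT) had an Ogn log2 ratio of -1.65 and those with one (788 and 2037) of -1.62. The log2 ratios of Dcn were 0.27 (-0.09 to 0.63) and 0.72 (0.60 to 0.84), and those of Lum 0.06 (-0.94 to 1.05) and 0.80 (0.50 to 1.12). The part of the immediate-early, osteolineage, pericyte, sinusoidal, LepR+, tendon and fibroblast genes was not tested.

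**Figure D3:**
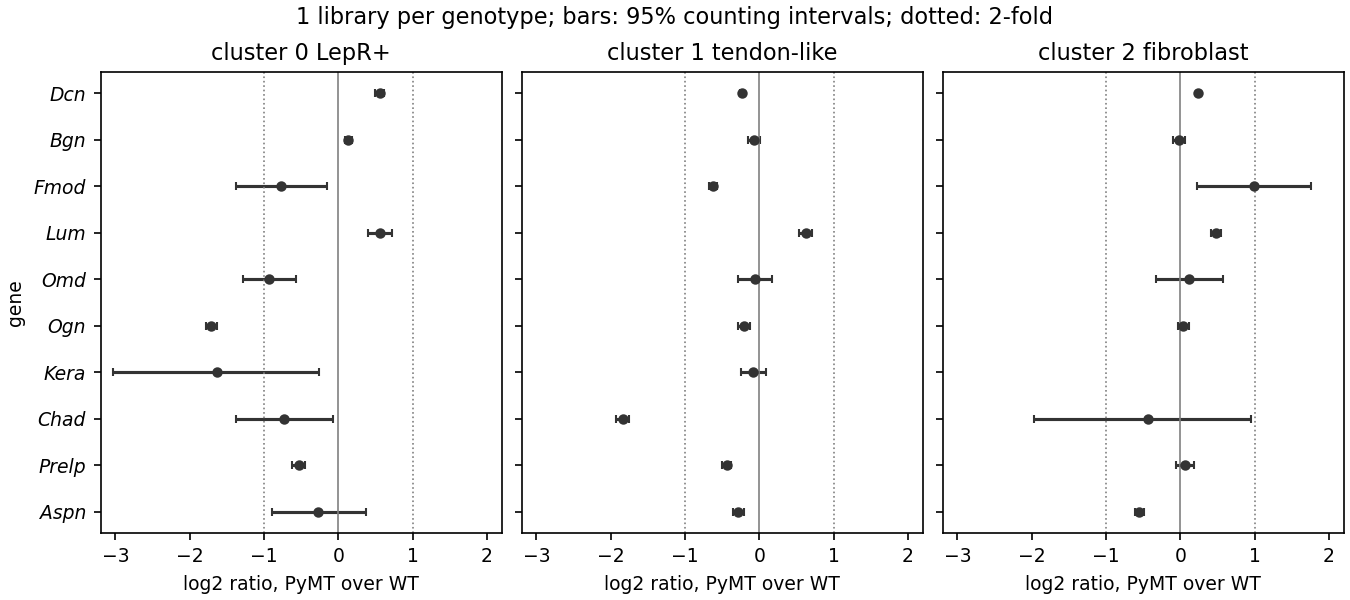
Log2 ratio of PyMT over WT level for each gene with at least 20 UMIs in LepR+ (cluster 0), tendon-like (cluster 1) and fibroblast-like (cluster 2) cells, from 1 library per genotype; bars are 95% counting intervals and dotted lines mark 2-fold. Ogn lies at -1.71 in cluster 0 and Chad at -1.84 in cluster 1.

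In tendon-like cells chondroadherin was the member past 2-fold. Chad was at 2629 CPM (2561 to 2698) in WT and 736 CPM (697 to 777) in PyMT, 3.57-fold lower (log2 ratio -1.84, -1.92 to -1.75). At 1500 UMIs 62.3% of WT and 37.7% of PyMT tendon-like cells held a Chad UMI (57.5% to 66.9% and 32.7% to 43.0%; 66.4% and 47.1% unthinned). Fibromodulin was at 3980 and 2591 CPM (log2 ratio -0.62), prolargin at 2893 and 2137 CPM (-0.44) and lumican at 914 and 1408 CPM (0.62). Kera (301 and 285 CPM) and Omd (169 and 163 CPM) had intervals of the ratio that included 0. The median log2 ratio was -0.22 over the 10 members and 0.16 over all 10207 genes, of which 1.50% were past 2-fold lower and 5.46% past 2-fold higher.

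The make-up of cluster 1 differed between the libraries. Of 11 measured cartilage genes 8 were past 2-fold higher in PyMT and 1 past 2-fold lower, and their sum went from 540 to 694 CPM. The osteolineage list had 5 of 11 measured genes past 2-fold higher, the LepR+ list 9 of 10 genes above 0 (median log2 ratio 0.75), and the tendon list 10 of 14 genes below 0 (median -0.37). The part of the cartilage, osteolineage, LepR+ and tendon genes in the lower Chad was not tested. Without the 6 WT and 11 PyMT cells that held a UMI of Col2a1, Col9a1, Col9a2, Col9a3, Col10a1 or Matn3, a choice made after the data were seen, the log2 ratio of Chad was -1.83. Cells were not left out for other cartilage markers such as Acan or Sox9, so this value cannot give the part of cartilage cells.

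Within cluster 1, cells with and without a Chad UMI at 1500 UMIs differed in some other members, in both libraries alike. In WT, the 266 cells with Chad held 5313 CPM of Fmod, 3609 of Prelp and 386 of Lum, and the 161 cells without it 1851, 1652 and 1801 CPM. In PyMT, the 134 cells with Chad held 4090, 3279 and 512 CPM, and the 221 cells without it 2256, 1499 and 1635 CPM. Between these cells lumican thus ran against fibromodulin and prolargin, while Bgn was level in WT (1446 and 1445 CPM). Across the cells of the cluster the correlation of Lum with Prelp was -0.39 in WT and -0.28 in PyMT. That of Lum with Fmod was weaker, at -0.18 and -0.15, and that of Fmod with Prelp was 0.51 and 0.59. These are Pearson correlations over 427 and 355 cells of 1 library each, which share library and depth, and are a description.

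In fibroblast-like cells none of the 9 members with at least 20 UMIs was past 2-fold in either direction (1.69% of 10680 genes were lower and 3.09% higher). Asporin was at 1951 and 1332 CPM (log2 ratio -0.55), decorin at 13414 and 15860 CPM (0.24) and lumican at 1241 and 1732 CPM (0.48). The median log2 ratio was 0.06 over the members and 0.08 over all genes. Lumican was the member whose level was higher in PyMT in all 3 large clusters, with intervals above 0 in each.

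**Figure D4:**
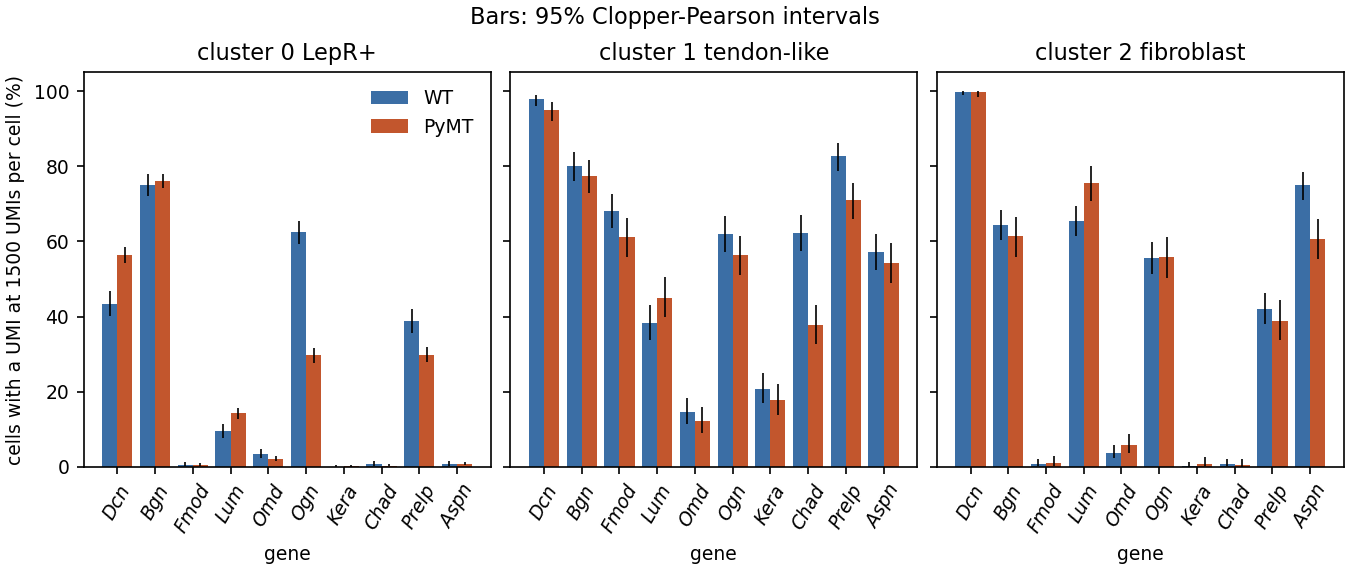
Share of cells with a UMI of each gene after thinning every cell to 1500 UMIs, in WT (blue) and PyMT (orange) LepR+, tendon-like and fibroblast-like cells; bars carry 95% Clopper-Pearson intervals over cells of 1 library. Ogn falls from 62.4% to 29.7% in LepR+ cells and Chad from 62.3% to 37.7% in tendon-like cells.

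The other family members had cell types of their own. Of the Podnl1 UMIs, 91.9% in WT and 96.1% in PyMT came from LepR+ cells (108 and 123 CPM there), Podn was highest in fibroblast-like cells (142 and 158 CPM), and Ecm2 was highest in tendon-like cells (619 and 571 CPM). Tsku was at 9.45 and 13.9 CPM in LepR+ cells, a log2 ratio of 0.56 (0.02 to 1.14). Epyc, which lies beside Kera, was at 37.0 and 99.2 CPM in tendon-like cells (log2 ratio 1.42, 1.03 to 1.82). Its UMIs there came from few cells, 12 of 441 in WT and 22 of 367 in PyMT.

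The genes whose level followed a member most closely over the 12 combinations of cluster and library, among 11298 genes, are given by Pearson's r as a description; the points share 2 libraries. Fmod and Chad both followed Cilp2, a cartilage and tendon matrix gene (r = 0.993 and 0.990), then Chodl and Chad for Fmod and Fmod and Npy for Chad. Kera followed S100a5 (0.996), Npy and F13a1, and Aspn followed Nox4 (0.988), Igfbp6 and Radil. Ogn followed Abi3bp (0.978), Fth1 and Lamp1, Omd followed Sema3b (0.978), Psmc3ip and Olfml3, and Lum followed Lgals1 (0.984), Ttc7 and Eif5a. Dcn followed Rgs10 (0.967), Adk and Ttc7, Bgn followed Lap3 (0.969), Tmed1 and Helb, and Prelp followed Atp6ap2 (0.956), Lbp and Tmem30b. Between members, Fmod and Chad were closest (0.975) and Omd and Prelp least alike (0.206).

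Set side by side, bulk MSC and LepR+ cells gave log2 values of -1.60 and -1.71 for Ogn, -1.57 and -0.93 for Omd, 1.11 and 0.56 for Dcn, 0.78 and 0.56 for Lum, and -0.29 and -0.53 for Prelp. For Bgn they were -0.28 and 0.14. Fmod, Chad and Aspn were above 0 in bulk. In LepR+ cells, where few cells held their UMIs, Chad was below 0. There Fmod (-0.77) turned to 0.78 without marked doublets, which were 6 WT and 2 PyMT cells. Aspn (-0.27, -0.89 to 0.37) turned to 0.50 with the mean of per-cell CPM. The tables were normalised separately and come from different tumour models, with 4 libraries a group in bulk and 1 in single cells, and the difference between them was not tested. The ratio of Ogn to Dcn was 1.38 in WT and 0.287 in PyMT LepR+ cells.

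**Figure D5:**
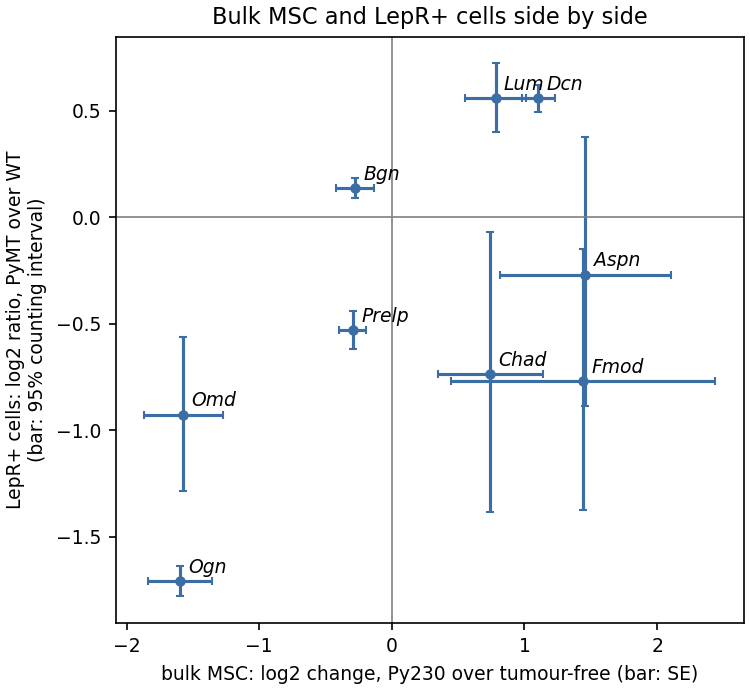
Log2 change in bulk MSC, Py230 over tumour-free (x axis, bars are SE, 4 libraries each), against log2 ratio in LepR+ cells, PyMT over WT (y axis, bars are 95% counting intervals, 1 library each), for the 9 genes tested in bulk. Ogn, Omd and Prelp lie below 0 on both axes, and Dcn and Lum above 0 on both.

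In HSPC, Bgn and Chad were listed among 11992 genes. Bgn was at 7.78 and 10.1 CPM in the WT and 4.59 and 5.08 CPM in the PyMT libraries, and Chad at 1.18 and 1.04 against 0.875 and 1.42 CPM. Bgn lay far below the 1021 to 1525 CPM of the WT stromal clusters that express it, and Chad below the 2629 CPM of WT tendon-like cells. With 2 libraries a genotype an exact test cannot reach 0.05, and none was made.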

How the data were processed

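Bulk RNA was sequenced from 8 MSC libraries with a stranded kit for small inputs and single cells with droplet 3' chemistry, per the labels' protocols. The submitters' processing notes list Cell Ranger 6.0.0, STAR 2.5.3a and Trim Galore with the build mm10; the counter and its strand setting were not stated. Values in the deposited bulk table are raw counts of reads per gene, and those in the deposited single-cell tables are raw UMI counts per gene and cell with the authors' cluster numbers. The deposited metadata give mitochondrial shares as a fraction (stroma) or percent (HSPC). For the stromal cells the share was computed anew from the UMIs of mitochondrial genes.

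The bulk test was the quasi-likelihood test of edgeR 4.0.16 under R 4.3.3 (filterByExpr, TMM, robust fit, Benjamini-Hochberg over all tested genes, threshold 0.05). RPKM used exon unions of GENCODE M21 (50376 of 50600 identifiers matched). Stromal cells were kept at 500 genes or more and a mitochondrial share below 10%, and UMIs were summed per cluster (scipy 1.17.1); ratios needed 20 UMIs and 100 cells per library, with exact 95% conditional intervals, and shares have Clopper-Pearson intervals. UMI intervals cover counting error only. Scrublet (in scanpy 1.11.5) called 1.37% (WT) and 0.125% (PyMT) of the cells doublets; the PyMT share is too low for a caller that works, and all cells stayed in. Cells of HSPC libraries were grouped by the genotype label, although all 4 titles carry a PyMT prefix. Promoters come from RefSeq (GRCm38.p6; 8 of the 10 members matched). Code was tested on simulated data.

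The members, the gene lists and the marker lists were chosen with earlier results of these data known. Text names all members, the other tested family members, at most 4 genes per list by smallest p past the threshold, and the 3 most similar genes of each member (log2 of CPM + 10, at least 100 UMIs). The fibroblast and tendon markers given with bulk levels fall outside this rule. Alternatives were DESeq2 1.42.0, other size factors, no filter, a replicate block, each replicate left out, doublets removed, thinned cells, median-centred ratios, per-cell means and all deposited cells, and others chosen after seeing the data, named as such.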

Additional observations from a re-analysis of the deposited data

Results flagged for a closer look

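Asporin in tumour-free replicate 3, at 3.79 CPM, stood apart from the other 3 tumour-free libraries, which lay between 1.996 and 2.207 CPM. Its gap made up 0.882 of the group's range. Of the 20 groups of 4 libraries examined this was the only such sample, and chance gives about 1 in 20.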

How the results depend on the processing

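Dcn rose and Ogn fell under all 13 bulk alternatives each; Omd fell in the same way, but its call was lost in the fit with a replicate block (log2 change -1.53, adjusted p = 0.0564). The number of members that rose, 1 here, was 2 with DESeq2 (Dcn, Lum), 3 with no filter on low counts (Dcn, Lum, Aspn) and 1 to 3 when each replicate was left out, with 3 without Py230 replicate 1 (Dcn, Lum, Aspn). The number that fell, 2 here, was 3 with DESeq2, which adds Prelp (adjusted p = 0.0176), and 2 in every fit that left out a replicate. With the replicate number as a block, 2 members rose (Dcn, Lum) and 1 fell (Ogn), and calls over all genes went from 324 higher and 447 lower to 176 and 237; same-numbered libraries did not deviate together (r = -0.385, -0.126, -0.2004 and 0.0151), so the numbers do not pair them. Without tumour-free replicate 1 and Py230 replicate 3, chosen after seeing the data, Dcn, Omd and Ogn kept their calls. In LepR+ cells the number of members past 2-fold lower, 2 here, was 1 (Ogn) without marked doublets, with the mean of per-cell CPM, and in cells without an Egr1 UMI. In the last of these Kera, Omd, Fmod, Chad and Aspn had no ratio. In thinned cells it was 2 with another member, Ogn and Chad (log2 ratio -1.35). Centred on the median of all genes, Omd also lay past 2-fold lower (-1.01). In fibroblast-like cells the number past 2-fold higher, 0 here, was 1 (Fmod) without marked doublets. In LepR+ cells the log2 ratio of Fmod went from -0.77 to 0.78 without marked doublets, which were 6 WT and 2 PyMT cells. That of Aspn went from -0.27 to 0.30 without them, 0.18 in thinned cells, 0.50 with per-cell means and 0.09 in cells with an Egr1 UMI. Across alternatives the log2 ratio of Ogn in LepR+ cells ran from -1.79 to -1.62 and that of Chad in tendon-like cells from -1.996 to -1.66. Causes were not tested. Reads limit Kera in bulk, and UMIs limit Fmod, Kera, Chad and Aspn in LepR+ cells.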
